A study of Homo sapiens with 12 samples.

Results

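The RNA of 10 secreted proteins of the epithelial defence and acute-phase response was followed in HaCaT cells, a human keratinocyte line that became immortal in culture. They comprise the beta-defensins DEFB4A and DEFB1, the ribonuclease RNASE7, the cathelicidin gene CAMP, the protease inhibitors PI3 and SLPI, the metal-limiting proteins LCN2 and LTF, and the serum amyloids SAA1 and SAA2. These 10 genes were taken by symbol from an expression table of 58735 genes, in which each symbol had 1 row, and were set side by side across the 4 groups of the study. The groups were Control-siRNA (control siRNA, no Mix), Control-siRNA+Mix (control siRNA and 24 h with a stimulus called Mix), PHGDH-siRNA (siRNA against PHGDH, no Mix) and PHGDH-siRNA+Mix (both). Each group held 3 libraries, 12 in all. All groups share the cell line, its culture medium and a transfection with siRNA, so an untransfected level was not measured. The sources used here do not state the contents or dose of Mix, nor the siRNA sequences. PHGDH, the targeted gene, encodes the first enzyme of serine synthesis from glucose. The design asks how its knockdown alters gene expression with and without Mix. HaCaT is a single line grown as a culture without other skin cells, and it is not stated whether the 3 libraries of each group are separate cultures, so a p-value reflects the spread among these libraries alone, possibly a technical one.

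Keratinocytes release antimicrobial proteins at the skin surface. Defensins, RNASE7 and the CAMP peptide damage microbes directly, LCN2 binds bacterial siderophores and LTF binds iron, while PI3 (elafin) and SLPI restrain the elastase that neutrophils release. SAA1 and SAA2 are acute-phase proteins best known from liver, and epithelial cells also make them. Several of these genes are known targets of cytokines of the IL-17, IL-1, TNF and oncostatin M kind, through NF-kappaB with its cofactor NFKBIZ, C/EBP factors and STAT3.

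Expression is given as FPKM, the fragments per kilobase of gene length scaled to a library size. The number of reads behind each value was recovered from the steps between low values and came to 16403845 to 20901128 per library. The library size implied by the FPKM was 0.93 to 1.1 times that number, so the values are not scaled to the counted total alone. PHGDH ranged from 36.5 to 56.2 FPKM in Control-siRNA, 26.6 to 31.9 in Control-siRNA+Mix, 16.9 to 23.7 in PHGDH-siRNA and 11.5 to 19.1 in PHGDH-siRNA+Mix. The siRNA groups did not overlap at either condition, although the difference in PHGDH missed the threshold of the test over all genes (limma on log2(FPKM + 1), adjusted p = 0.128 without Mix and 0.2 with Mix). The libraries numbered 2 of both PHGDH-siRNA groups stood apart from the rest. On the second principal component of all tested genes, which held 27.7% of the variance, they lay at 50.02 (without Mix) and 46.31 (with Mix), against -29.6 to 14.4 in the other 10 libraries. The responses to Mix under the PHGDH siRNA, the siRNA comparisons and the difference between arms are given with all libraries and without this pair. The pair was picked from these same data. Leaving out libraries that stand apart narrows the spread, so p-values without the pair are likely too small and intervals too narrow.

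The label of the cells was checked against marker lists. Of 10 keratinocyte markers, 10 reached a mean of 1 FPKM in at least 1 group. Their summed level was 1963 to 2888 FPKM in Control-siRNA, 4605 to 4976 in Control-siRNA+Mix, 2416 to 6870 in PHGDH-siRNA and 4771 to 8120 in PHGDH-siRNA+Mix, and the highest value in both PHGDH-siRNA groups belonged to replicate 2. The sum was higher with Mix in the control arm. In the PHGDH-siRNA arm it went from 2600 to 5270, 6870 to 8120 and 2416 to 4771 FPKM in replicates 1, 2 and 3. The list holds KRT6A, whose mean went from 332.5 to 1031 FPKM with Mix under the control siRNA and from 475.4 to 1234 under the PHGDH siRNA. The sum thus does not measure cell identity alone, and the other markers are not given by group. The part of the sum in the results with Mix was not tested. Neutrophil precursors also make LCN2, LTF and CAMP, and none of 10 neutrophil markers reached a mean of 0.5 FPKM in any group. Their sum was 0.341 to 0.398 FPKM in Control-siRNA, 0.0674 to 0.114 in Control-siRNA+Mix, 0.210 to 0.355 in PHGDH-siRNA and 0.159 to 0.261 in PHGDH-siRNA+Mix, with MPO, ELANE, CEACAM8, FCGR3B and MNDA at 0 in all libraries. None of 7 hepatocyte markers reached 0.5 FPKM either. ALB, APOB and TAT were at 0 throughout, and the sum of the list was at most 0.231 FPKM. Of the leukocyte, fibroblast, melanocyte and endothelial lists, 1 of 10, 2 of 7, 1 of 5 and 1 of 4 genes reached that mean, the highest sum was 2.86 FPKM (leukocytes), and PTPRC, TYR and KDR were at 0. In bulk RNA, a change in the share of cells that express a gene and a change in RNA per cell cannot be told apart.

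Promoter sequences were matched by symbol in a RefSeq table of build GRCh38.p14. Of the 10 genes, 4 had an entry (LCN2, RNASE7, CAMP and LTF). The 250 bases before the start site are shown for LCN2 and RNASE7, the members among these 4 whose level passed the test below. They lie at chr9:128149203-128149452 and chr14:21042112-21042361, both on the plus strand. The RefSeq start sites lie 382 (LCN2) and 136 (RNASE7) bases inside the genes as bounded in the deposited table, so the LCN2 window lies within that gene interval and the RNASE7 window overlaps its first bases. Capitals mark matches to 4 motifs searched on both strands: the NF-kappaB consensus, C/EBP as TTNNGNAA, STAT as TTCNNNGAA and AP-1 as TGANTCA.
LCN2: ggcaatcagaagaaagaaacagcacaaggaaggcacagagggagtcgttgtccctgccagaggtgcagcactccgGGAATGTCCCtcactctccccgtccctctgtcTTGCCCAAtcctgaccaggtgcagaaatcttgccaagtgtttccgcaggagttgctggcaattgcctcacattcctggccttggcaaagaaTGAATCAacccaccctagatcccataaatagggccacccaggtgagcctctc
RNASE7: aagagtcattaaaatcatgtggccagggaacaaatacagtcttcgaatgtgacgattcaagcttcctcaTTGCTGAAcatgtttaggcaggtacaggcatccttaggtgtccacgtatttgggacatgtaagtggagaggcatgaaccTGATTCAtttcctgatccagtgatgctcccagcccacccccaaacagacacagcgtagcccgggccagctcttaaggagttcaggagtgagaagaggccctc
In LCN2 the capitals mark, in order, an NF-kappaB match 175 to 166 bases before the start, a C/EBP match 143 to 136 bases before it and an AP-1 match 52 to 46 bases before it. In RNASE7 they mark a C/EBP match 181 to 174 bases before the start and an AP-1 match 102 to 96 bases before it. No match overlapped another. LTF and CAMP, which are not shown, were searched too. LTF held a C/EBP match in its entries 1 and 2 and a STAT match in its entry 3, and CAMP held none. Over all 35116 windows of the same length in the table, 9.96% held an NF-kappaB match, 33.2% a C/EBP match, 6.57% a STAT match and 6.57% an AP-1 match. These are matches of letters, and binding was not measured.

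Mix raised 7 of the 8 members that could be tested in cells with control siRNA. The rise was largest for PI3, followed on the log2 scale by DEFB4A and LCN2, then SLPI, RNASE7, SAA1 and SAA2. Over all 14577 tested genes, 5.62% rose and 3.92% fell by the same rule, an adjusted p under 0.05 in limma with Benjamini-Hochberg adjustment over all tested genes. The median difference of the 8 members was 3.15 on the log2 scale, against 0.004 for all tested genes. Under the PHGDH siRNA, 6 of the 8 rose with Mix, where 5.22% of all tested genes rose and 3.64% fell, and the median of the members was 2.58. A gene was tested when its mean reached 0.5 FPKM in at least 1 group. DEFB4A passed this filter only through the Mix groups and DEFB1 only through the groups without Mix, and CAMP and LTF did not pass, so these counts and medians do not describe all 10 members. In the main fit all groups shared 1 estimate of the spread. The median coefficient of variation over genes with a mean of at least 1 FPKM was 7.53% in Control-siRNA+Mix and 21.7% in PHGDH-siRNA+Mix. With only the 2 PHGDH-siRNA groups fitted, DEFB4A, SLPI and SAA1 lost their calls with Mix, which left PI3, LCN2 and SAA2. In the PHGDH-siRNA arm the same-numbered libraries deviated together, though the labels do not say what a number shares. A fit of those 2 groups alone with the replicate number as a block was added after the data were seen. In it, 7 of the 8 members rose (RNASE7 was added), among 2187 genes up and 1901 down of 14009 tested. Scaled to the library total instead, the same 7 and 6 member counts were obtained, while the split of all called genes moved from 819 up and 572 down to 708 up and 780 down under the control siRNA, and from 761 up and 530 down to 618 up and 852 down under the PHGDH siRNA.

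**Figure D1:**
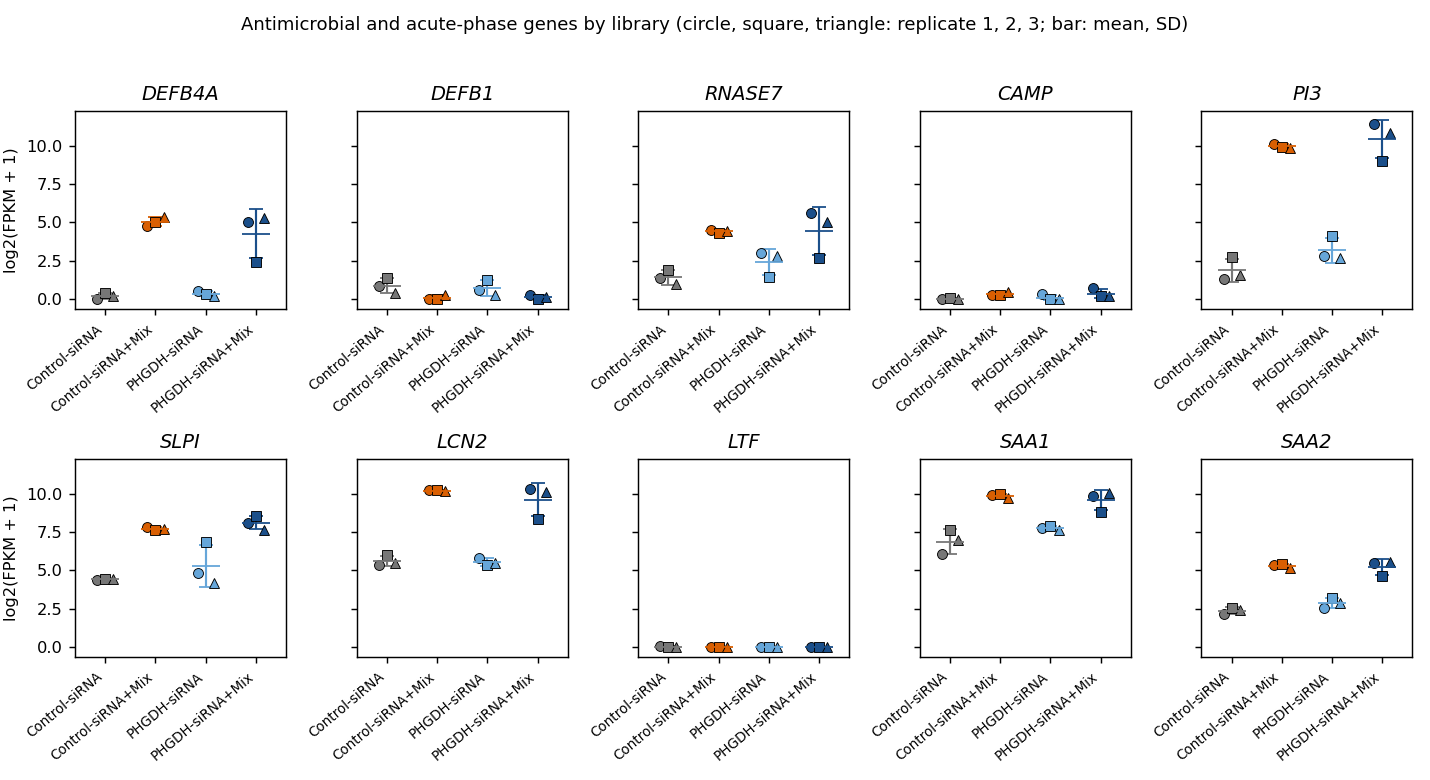
Level of each of the 10 genes in the 12 libraries, as log2(FPKM + 1) on the vertical axis, by group on the horizontal axis; points are libraries, shaped by replicate number, and the horizontal mark with whiskers is the mean and SD of 3 libraries on that scale. With Mix, all libraries of PI3, SLPI, LCN2, SAA1, SAA2 and DEFB4A lie above all libraries of the same siRNA without Mix, while LTF stays near 0.

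PI3 encodes elafin, an inhibitor of neutrophil elastase and proteinase 3. The gene (ENSG00000124102) lies at chr20:45174876-45176544 on the plus strand in hg38, the build named in the submitters' processing notes. PI3 was at 1.44, 5.72 and 2.02 FPKM in Control-siRNA and at 1122, 966 and 946 FPKM in Control-siRNA+Mix. Every Mix library was thus above every library without Mix, with means of 3.06 ± 2.32 and 1012 ± 95.9 FPKM (SD, n = 3). This 331-fold ratio of means corresponded to a log2 difference of 8.10 (SE 0.60, adjusted p = 1.23e-05, limma), rank 2 of 14577 genes in size. Without replicate 2 of Control-siRNA, the highest library of that group, the ratio was 585. Under the PHGDH siRNA, PI3 went from 5.97, 16.5 and 5.30 FPKM to 2747, 517 and 1844 FPKM with Mix, a 184-fold ratio of means. The 3 Mix libraries of that arm were far apart, and the lowest was replicate 2. The log2 difference was 7.23 (adjusted p = 4.27e-05, limma), and without replicate 2 of both PHGDH-siRNA groups it was 8.41 (adjusted p = 2.82e-06, limma) with a ratio of means of 408. Without replicate 2 of PHGDH-siRNA alone the ratio was 302.

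SLPI, the secretory leukocyte protease inhibitor, belongs to the same WAP domain family and lies on the same chromosome (ENSG00000124107, chr20:45252239-45254564, minus strand). SLPI was at 19.6, 21.0 and 20.2 FPKM in Control-siRNA and at 225, 196 and 205 FPKM in Control-siRNA+Mix, with no overlap and a 10.3-fold ratio of means. The log2 difference was 3.30 (SE 0.52, adjusted p = 0.00222, limma). In PHGDH-siRNA the 3 libraries were at 27.2, 111 and 16.9 FPKM, and in PHGDH-siRNA+Mix at 274, 367 and 200 FPKM. Replicate 2 was the highest library of both groups for SLPI, unlike for PI3, where it was the highest without Mix and the lowest with Mix. The groups did not overlap and the log2 difference was 2.83 (adjusted p = 0.00655, limma). With only these groups in the fit, SLPI did not pass (adjusted p = 0.102, limma). The ratio of means was 5.41 with all libraries, 12.7 without replicate 2 of PHGDH-siRNA and 10.8 without replicate 2 of both groups, where the log2 difference was 3.39 (adjusted p = 1.7e-05, limma).

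LCN2, or lipocalin 2, binds siderophores and so withholds iron from bacteria. Its gene (ENSG00000148346) is at chr9:128149071-128153455 on the plus strand, and its promoter is the first sequence above. LCN2 was already at 39.8, 62.4 and 42.9 FPKM in Control-siRNA, and it was at 1178, 1182 and 1143 FPKM in Control-siRNA+Mix. The Mix libraries lay within a narrow band, with a mean of 1168 ± 21.5 FPKM (SD, n = 3), and none overlapped with the libraries without Mix. The log2 difference was 4.59 (SE 0.42, adjusted p = 5.2e-05, limma). Under the PHGDH siRNA, LCN2 was at 54.8, 39.7 and 43.3 FPKM without Mix and at 1250, 324 and 1111 FPKM with Mix. Replicate 2 was again the lowest of the Mix libraries, yet above every library without Mix, and the log2 difference was 4.04 (adjusted p = 0.000172, limma). It was 4.57 without replicate 2 of both groups (adjusted p = 2.01e-06, limma), and the ratio of means went from 19.5 to 24.1.

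SAA1 and SAA2 are neighbours on chromosome 11 and encode nearly identical apolipoproteins of the acute phase. SAA1 (ENSG00000173432) is at chr11:18266174-18269977 on the plus strand and SAA2 (ENSG00000134339) at chr11:18239223-18248643 on the minus strand. SAA1 was the most abundant member without Mix, at 64.4, 193 and 126 FPKM in Control-siRNA, and was at 961, 996 and 837 FPKM in Control-siRNA+Mix. The lowest Mix library was above the highest library without Mix, and the log2 difference was 2.99 (SE 0.38, adjusted p = 0.000574, limma). SAA2 was at 3.39, 4.80 and 4.40 FPKM without Mix and at 39.4, 41.5 and 34.9 FPKM with it. Its log2 difference of 2.94 (SE 0.25, adjusted p = 3.32e-05, limma) was close in size to that of SAA1, and its libraries did not overlap either.

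With the PHGDH siRNA, SAA1 was at 215, 238 and 194 FPKM without Mix and at 927, 453 and 1059 FPKM with Mix. The groups did not overlap, and the log2 difference was 1.82 (adjusted p = 0.0136, limma). The call of SAA1 was lost without replicate 3 of PHGDH-siRNA (adjusted p = 0.0566, limma) and without replicate 3 of PHGDH-siRNA+Mix (adjusted p = 0.0596, limma). It was also lost with only these groups in the fit. SAA2 was at 4.85, 8.26 and 6.14 FPKM without Mix and at 43.9, 23.1 and 44.99 FPKM with Mix, again without overlap, with a log2 difference of 2.34 (adjusted p = 0.000216, limma). With replicate 2 of both groups left out, the differences were 2.27 for SAA1 (adjusted p = 0.00495, limma) and 2.81 for SAA2 (adjusted p = 6.49e-06, limma). In the GENCODE 29 transcripts, 46.6% of the 50-base windows of SAA1 also occur in SAA2, so how reads are divided between the pair depends on the counting, whose treatment of such reads the sources used here do not state. The gene length behind the FPKM of SAA2 was 2227 bases, against 323 to 1022 bases for its coding transcripts. The length used for SAA1 was 796 bases, so length lowers the FPKM of SAA2 relative to that of SAA1. SAA2 also had fewer reads, 512 against 5560 in Control-siRNA and 4705 against 40587 in Control-siRNA+Mix, so length is only part of the gap.

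DEFB4A encodes human beta-defensin 2, a peptide active against bacteria and yeast that also attracts cells through CCR6. The gene (ENSG00000171711) is at chr8:7894629-7896711 on the plus strand. DEFB4A was at 0, 0.294 and 0.139 FPKM in Control-siRNA, which is 3 reads in all, and at 26.4, 32.1 and 39.8 FPKM in Control-siRNA+Mix, which is 687 reads. From these reads the ratio was 229, with a 95% interval of 78.0 to 1112 that covers counting error only. Under the PHGDH siRNA it was at 0.477, 0.274 and 0.141 FPKM without Mix (6 reads) and at 32.2, 4.41 and 38.6 FPKM with Mix (540 reads), a ratio of 86.7 with an interval of 39.6 to 237. All Mix libraries were above all libraries without Mix in both arms, and replicate 2 was the lowest of PHGDH-siRNA+Mix. On the log2(FPKM + 1) scale, which understates changes of genes near 0, the differences were 4.87 (adjusted p = 0.000362, limma) and 3.90 (adjusted p = 0.00198, limma). The latter was 4.80 without replicate 2 of both PHGDH-siRNA groups (adjusted p = 1.56e-06, limma). With all libraries but only the groups of that arm in the fit, DEFB4A did not pass there (adjusted p = 0.0606, limma). Of the 50-base windows of DEFB4A, 70.4% also occur in its copy DEFB4B, which was at a mean of 0.211 FPKM in Control-siRNA+Mix, so the level of DEFB4A by itself is uncertain.

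RNASE7, a ribonuclease with broad antimicrobial activity that keratinocytes secrete, is at chr14:21042226-21044234 on the plus strand (ENSG00000165799). RNASE7 was at 1.63, 2.76 and 0.953 FPKM in Control-siRNA and at 22.0, 18.6 and 20.9 FPKM in Control-siRNA+Mix. The groups did not overlap, and the log2 difference was 3.00 (SE 0.66, adjusted p = 0.0161, limma). This call was lost without replicate 3 of Control-siRNA or without replicate 1, 2 or 3 of Control-siRNA+Mix, where the adjusted p from limma lay between 0.0513 and 0.0723, and with no filter on low values (0.0527). Under the PHGDH siRNA, RNASE7 was at 7.09, 1.67 and 6.15 FPKM without Mix and at 48.7, 5.30 and 31.4 FPKM with Mix. Those groups overlapped, since replicate 2 with Mix was below replicates 1 and 3 without it, and the log2 difference of 2.01 did not pass the test (adjusted p = 0.0909, limma). Without replicate 2 of both PHGDH-siRNA groups it was 2.40 (adjusted p = 0.000665, limma). Set against the library of the same number, RNASE7 was higher with Mix in 3 of 3 pairs, though the labels do not say what a number shares. With the replicate number as a block in a fit of those 2 groups, the difference of 2.01 passed (SE 0.27, adjusted p = 0.00989, limma). That fit was added after the data were seen. Of 15 alternative fits, this included, 3 called RNASE7 in the PHGDH-siRNA arm. On the opposite strand RNASE7 is overlapped by NDRG2, which was at most at 3.65 FPKM in any library. The mean of NDRG2 was 3.31 FPKM in Control-siRNA, above the RNASE7 mean of 1.78 there. In Control-siRNA+Mix the means were 3.05 for NDRG2 and 20.5 for RNASE7. The sources used here do not state whether counting used strand, so reads of the pair may not be separated.

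DEFB1 encodes beta-defensin 1, which many epithelia make without a stimulus. It is at chr8:6870575-6878022 on the minus strand (ENSG00000164825). DEFB1 was at 0.812, 1.64 and 0.332 FPKM in Control-siRNA and at 0, 0 and 0.220 FPKM in Control-siRNA+Mix, or 24 reads against 2. The libraries did not overlap. The level from reads was 12.01 times lower with Mix, with a counting interval of 2.98 to 105, and the log2 difference of -0.79 did not pass the test (adjusted p = 0.108, limma). Without replicate 2 of both PHGDH-siRNA groups the same difference passed (SE 0.23 against 0.28 with all libraries, adjusted p = 0.0393, limma). With the PHGDH siRNA, DEFB1 had 19 reads without Mix and 3 with it, a ratio of 6.57 with an interval of 1.93 to 34.7 (log2 difference -0.57, adjusted p = 0.26, limma). Of those 19 reads, 13 came from replicate 2. Without replicate 2 of both PHGDH-siRNA groups the ratio of mean FPKM went from 6.54 to 2.22 and the log2 difference was -0.22 (adjusted p = 0.661, limma).

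CAMP, the precursor of the peptide LL-37, and LTF, or lactoferrin, were barely detected. CAMP (ENSG00000164047, chr3:48223347-48225491, plus strand) had 1 read in Control-siRNA, 11 in Control-siRNA+Mix, 3 in PHGDH-siRNA and 13 in PHGDH-siRNA+Mix. The ratio with Mix was 10.99 (counting interval 1.60 to 473) under the control siRNA and 4.18 (1.15 to 22.9) under the PHGDH siRNA, and no library exceeded 0.622 FPKM. LTF (ENSG00000012223, chr3:46435645-46485234, minus strand) had 3 reads over the 12 libraries, 2 in Control-siRNA and 1 in Control-siRNA+Mix. With both groups at or under 3 reads, no fold is given for LTF, and a difference was not detectable at this depth.

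**Figure D2:**
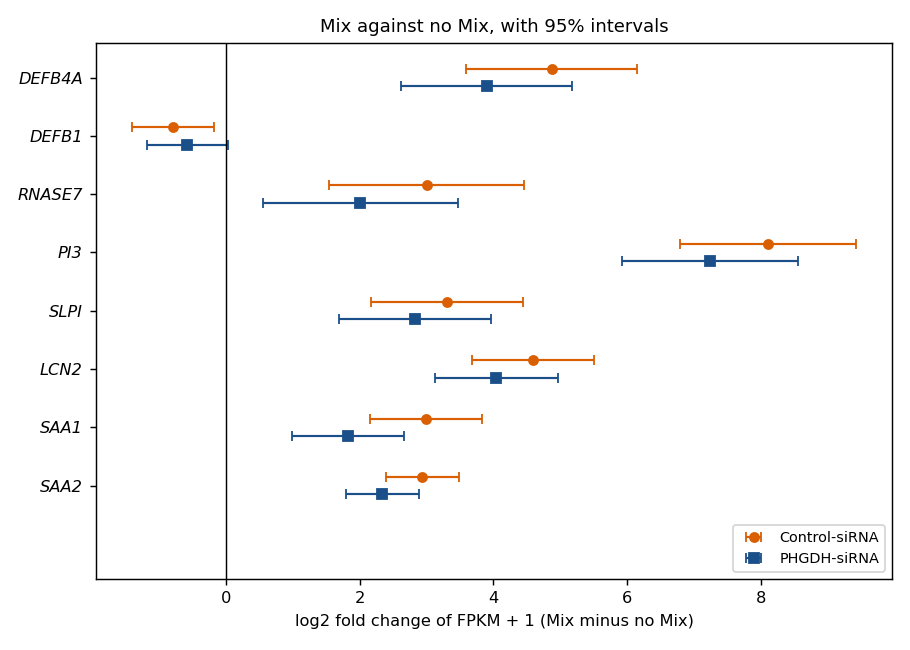
Log2 fold change of FPKM + 1 with Mix against without Mix for the 8 tested genes, on the horizontal axis, under the control siRNA (circles) and the PHGDH siRNA (squares), with 95% intervals from limma. PI3 lies farthest to the right at 8.10 and 7.23, and DEFB1 lies left of 0 in both arms.

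The members were also set in order of level within each group. In Control-siRNA, SAA1 was highest with a mean of 128 FPKM, then LCN2 with 48.4 and SLPI with 20.3, each above the next without overlap of libraries. SAA2, PI3, RNASE7 and DEFB1 followed with means of 4.19, 3.06, 1.78 and 0.927 FPKM, and neighbours in that order overlapped. In Control-siRNA+Mix, LCN2 was highest at 1168 FPKM and did not overlap with PI3 at 1012, whereas PI3 and SAA1 at 931 overlapped. SLPI at 209 FPKM stood apart from those above and below it, SAA2 and DEFB4A overlapped at 38.6 and 32.8, and RNASE7 was below them at 20.5. In PHGDH-siRNA+Mix the order of means was PI3, LCN2 and SAA1 at 1703, 895 and 813 FPKM, and these overlapped. FPKM is a level per length, so this order also rests on the gene lengths the submitters used, which for LCN2 was 1598 bases against 631 to 848 for its coding transcripts.

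Without Mix, no member passed the test between PHGDH-siRNA and Control-siRNA. Of all tested genes, 6 passed, or 0.0412%, in limma, and 5 passed with voom on the recovered reads, which called 0 members too. At an unadjusted p under 0.05 there were 2 members, SAA1 and PI3, and 935 genes. SAA1 was 0.88 higher on the log2 scale with the PHGDH siRNA (95% interval 0.05 to 1.72, adjusted p = 0.762, limma), from 64.4 to 193 FPKM in Control-siRNA and 194 to 238 in PHGDH-siRNA. PI3 was 1.32 higher (interval 0.00 to 2.64, adjusted p = 0.775, limma). Of the other tested members, RNASE7 was 1.00 higher (-0.45 to 2.45), SLPI 0.85 higher (-0.28 to 1.99) and SAA2 0.50 higher (-0.05 to 1.05). LCN2 differed by -0.06 (-0.97 to 0.86), which leaves room for a change of either sign. The libraries of the siRNA groups did not overlap for SAA1 and SAA2, 2 of 8 members, where 10.2% of all tested genes did not overlap. An exact permutation test was not run, since with 3 libraries on each side its p is at least 0.1.

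With Mix, no member passed either, and no member had an unadjusted p under 0.05. In limma 3 genes of all passed, or 0.0206%, while 834 had an unadjusted p under 0.05, and voom called 3 genes and 0 members. None of the 8 members had libraries that did not overlap, against 14.3% of all tested genes. The differences in the 4 members of highest level with Mix were 0.45 for PI3 (95% interval -0.87 to 1.77), -0.61 for LCN2 (-1.52 to 0.31), -0.28 for SAA1 (-1.12 to 0.55) and 0.38 for SLPI (-0.75 to 1.52). For DEFB4A the difference was -0.79 (-2.07 to 0.48), and for RNASE7 it was 0.01 (-1.44 to 1.46). These intervals include changes of more than 1 on the log2 scale in at least 1 direction, so the data do not show that the siRNAs gave alike levels. SAA2 differed by -0.10 (-0.65 to 0.45) and DEFB1 by 0.05 (-0.56 to 0.66). S100A7, an antimicrobial protein of keratinocytes outside the group, had a mean of 358 FPKM in Control-siRNA+Mix and 137 in PHGDH-siRNA+Mix with no overlap, and missed the threshold as well (log2 difference -1.41, adjusted p = 0.0745, limma).

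The test of whether the response to Mix differed between the siRNAs called 0 of 14577 genes in limma, a share of 0%, and 0 with voom, while 250 genes and 0 members had an unadjusted p under 0.05. The estimate for SAA1 was -1.17 on the log2 scale (95% interval -2.35 to 0.02, adjusted p = 0.9999, limma), the smallest unadjusted p among the members at 0.0532. The other estimates ran from -0.99 for RNASE7 to 0.22 for DEFB1. With replicate 2 of both PHGDH-siRNA groups left out, the estimate was -0.72 for SAA1 (-1.87 to 0.44), -0.60 for RNASE7, -0.12 for SAA2, -0.07 for DEFB4A, -0.02 for LCN2, 0.09 for SLPI, 0.31 for PI3 and 0.57 for DEFB1. That fit called 0 genes as well. The Mix comparisons of both arms and the siRNA comparisons share libraries, so their values are not independent of one another.

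**Figure D3:**
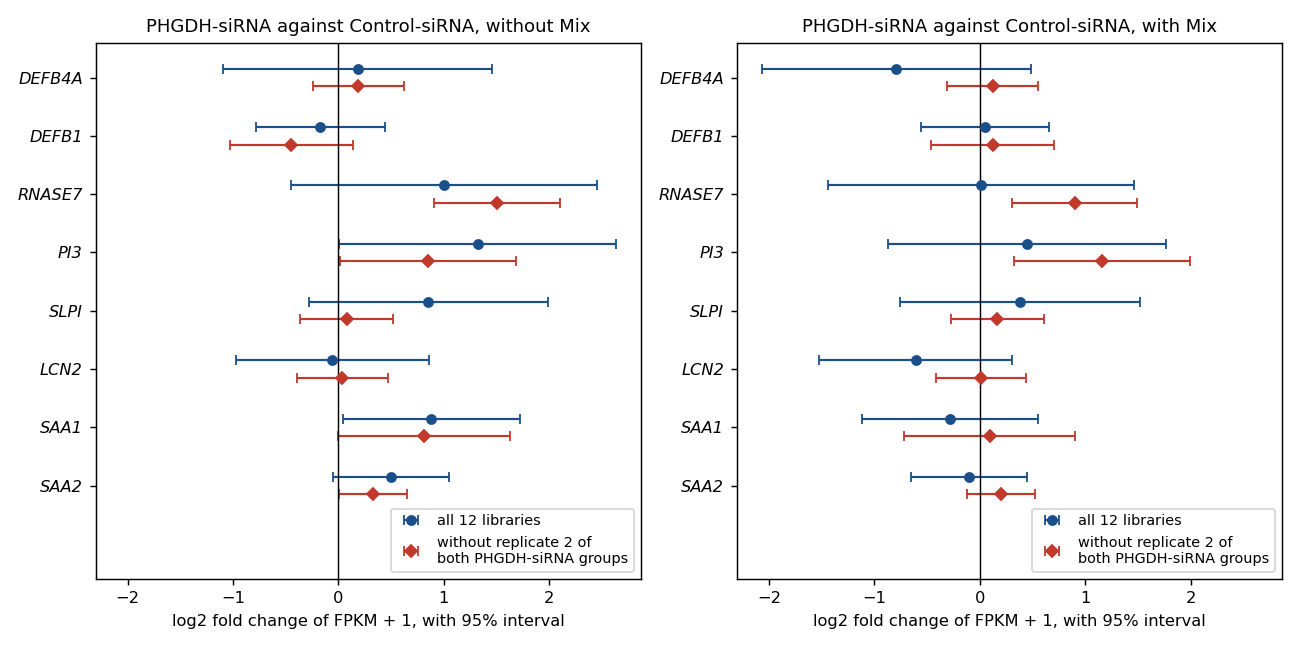
Log2 fold change of FPKM + 1 with the PHGDH siRNA against the control siRNA for the 8 tested genes, without Mix (left) and with Mix (right); bars are 95% intervals from limma over all 12 libraries (circles) and without replicate 2 of both PHGDH-siRNA groups (diamonds). Without those libraries RNASE7 lies at 1.504 and 0.90, and LCN2 at 0.04 and 0.01.

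Leaving out replicate 2 of both PHGDH-siRNA groups brought 1 member past the test between the siRNAs. Without Mix, RNASE7 was then 1.504 higher with the PHGDH siRNA and passed the test (95% interval 0.91 to 2.10, adjusted p = 0.046, limma), as 1 of 8 members and 101 of 14507 tested genes. Replicate 2 was the lowest library of both PHGDH-siRNA groups for RNASE7, and the SE went from 0.66 to 0.26 without the pair. The pair was picked from these same data, so this p is likely too small. SLPI went from 0.85 to 0.08 (-0.36 to 0.52), and SAA1 stayed near its value at 0.81 (-0.01 to 1.62). With Mix, PI3 was 1.16 higher (0.32 to 1.99, adjusted p = 0.238, limma) and RNASE7 0.90 higher (0.31 to 1.496, adjusted p = 0.195, limma), neither past the threshold. LCN2 differed by 0.01 (-0.42 to 0.44) and DEFB4A by 0.12 (-0.31 to 0.55). The reason that these libraries stand apart was not tested.

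The members did not shift as a block in replicate 2. In PHGDH-siRNA+Mix its level relative to the mean of the other 2 libraries was 0.1246 for DEFB4A, 0.132 for RNASE7, 0.225 for PI3, 0.274 for LCN2, 0.456 for SAA1 and 0.521 for SAA2, but 1.55 for SLPI. In PHGDH-siRNA the same ratio was 5.05 for SLPI and 2.94 for PI3, and 0.252 for RNASE7. SLPI was thus highest in replicate 2 of both groups, and RNASE7 was lowest in both. The summed keratinocyte markers were 6870 FPKM in replicate 2 of PHGDH-siRNA, against 2600 and 2416 in replicates 1 and 3, and 8120 FPKM in replicate 2 of PHGDH-siRNA+Mix, against 5270 and 4771. Their part in these levels was not tested. In Control-siRNA+Mix the 7 members other than DEFB1, CAMP and LTF varied little, with coefficients of variation from 1.84% to 20.5% (median 8.78%). They varied more in Control-siRNA (3.475% to 101.9%, median 50.3%), PHGDH-siRNA (10.25% to 99.97%, median 56.8%) and PHGDH-siRNA+Mix (29.8% to 76.8%, median 55.8%). The medians over all genes with a mean of at least 1 FPKM were 7.53%, 16.4%, 20.6% and 21.7% in these groups, in the same order.

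**Figure D4:**
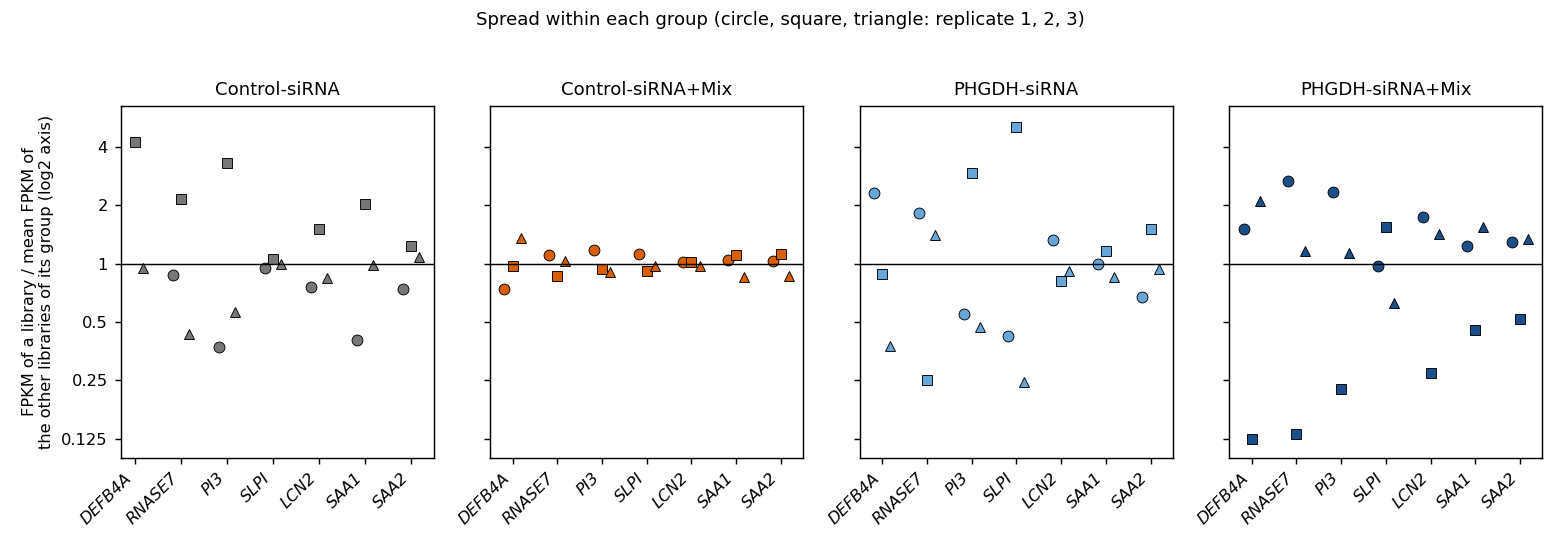
FPKM of each library divided by the mean of the other 2 libraries of its group, on a log2 axis, for the 7 genes other than DEFB1, CAMP and LTF; points are shaped by replicate number, and a library at 0 (DEFB4A in replicate 1 of Control-siRNA) is not drawn. In PHGDH-siRNA+Mix the squares (replicate 2) lie below 1 for 6 genes, down to 0.1246 for DEFB4A, and above 1 for SLPI.

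Across the 12 libraries the log2(FPKM + 1) values of the 7 members that rose followed one another, mostly with the presence of Mix, which all correlations here share. DEFB1 was correlated negatively with each of them, from r = -0.69 with LCN2 to -0.56 with SLPI. The gene most like DEFB4A was MMP10, a matrix metalloproteinase (Pearson r = 0.996), followed by CHI3L2 (0.995) and LCN2 (0.992). Most like LCN2 were DEFB4A (0.992), the protease gene CTSS (0.992) and the cytokine feedback inhibitor SOCS3 (0.991). PI3 was most like RPSAP52 (0.995), SAA2 (0.994) and the cadherin gene CDH3 (0.992). SLPI was closest to DHRS7 (0.990) and the wound keratin KRT6A (0.989), and RNASE7 to FST (0.986), which encodes follistatin. Among the 7 members that rose, the loosest pair was SLPI and RNASE7, with r = 0.695.

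Related secreted genes were measured beside the members, from lists chosen with earlier results of these data known. Of 39 other antimicrobial proteins and defensins, 8 were tested, and Mix raised 2 under the control siRNA and 1 under the PHGDH siRNA, where 5.62% and 5.22% of all tested genes rose. Of these 8, 6 passed the filter only through a Mix group, as did 2 of the 4 tested WAP domain genes (WFDC5 and WFDC12) and 1 of the 7 tested acute-phase genes (CFB), so counts over the tested genes of these lists favour a rise. CCL20, a chemokine with antimicrobial activity, went from a mean of 0.126 to 3.72 FPKM under the control siRNA (log2 difference 2.06, adjusted p = 0.00152, limma) and ADM from 21.4 to 44.9 FPKM (1.05, adjusted p = 0.0488). Of 15 WAP domain genes, 4 were tested, and 2 rose in each arm, WFDC5 and WFDC2 under the control siRNA and WFDC5 and WFDC12 under the PHGDH siRNA. WFDC5, which lies close to PI3 at chr20:45109452-45115172 on the minus strand, went from a mean of 0.192 to 4.30 FPKM (2.14, adjusted p = 3.89e-05, limma) and, under the PHGDH siRNA, from 0.359 to 5.80 FPKM (2.35, adjusted p = 3.46e-05). SEMG1 and SEMG2, which lie between PI3 and SLPI, were at 0 in every group. Of 25 other acute-phase genes, 7 were tested, and 3 rose under the control siRNA and 2 under the PHGDH siRNA, among them complement factor B (CFB, 0.109 to 4.39 FPKM, log2 difference 2.27, adjusted p = 2.49e-06). SAA4, the constitutive relative next to SAA2, was at means of 0.174 and 0.470 FPKM without and with Mix under the control siRNA and did not pass (adjusted p = 0.442, limma).

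Transcription factors and receptors of these responses were counted in the same way. Beside these counts stand the shares of all tested genes, 5.62% up and 3.92% down with Mix under the control siRNA and 5.22% and 3.64% under the PHGDH siRNA, with medians of 0.004 and 0. Of 18 factors, 17 were tested, and under the control siRNA 8 rose with Mix and 1 fell, while under the PHGDH siRNA 5 rose (medians 0.57 and 0.52). NFKBIZ, the cofactor of NF-kappaB, went from a mean of 2.09 ± 0.402 to 15.0 ± 0.635 FPKM (SD, n = 3) in the control arm (log2 difference 2.38, adjusted p = 1.08e-06, limma) and rose by 1.85 in the other arm (adjusted p = 1.24e-05). BCL3 and NFKB2 rose by 1.46 and 1.26 under the control siRNA (adjusted p = 0.00296 and 0.00323, limma) and passed under the PHGDH siRNA too. CEBPD rose by 1.53 (adjusted p = 0.0142, limma) and CEBPB by 1.25 (adjusted p = 0.0178) under the control siRNA, whereas CEBPA fell by 1.53 there (adjusted p = 0.0175). CEBPA is named outside the rule for named genes given below, as the factor that fell. CEBPD, CEBPB and CEBPA did not pass under the PHGDH siRNA, at 0.998, 0.78 and -1.045 (adjusted p = 0.0913, 0.124 and 0.0896, limma). STAT3 differed by 0.33 under the control siRNA (adjusted p = 0.0537, limma) and by 0.34 under the PHGDH siRNA (adjusted p = 0.0493). Of 20 cytokine receptor genes, 18 were tested, and 4 rose and 1 fell in each arm (medians 0.01 and 0.07). OSMR, the oncostatin M receptor, rose from a mean of 15.6 to 47.7 FPKM (1.55, adjusted p = 4.12e-05, limma), and IL17RE fell by 0.87 (adjusted p = 0.0346). Of 23 proteases and binding partners of the members, 12 were tested, and 2 rose and 2 fell in each arm (medians -0.36 and -0.32). TGM2, a transglutaminase, rose by 2.67 and MMP9, which LCN2 binds, by 3.09, while the kallikreins KLK13 and KLK8 fell by 1.08 and 0.72 under the control siRNA (adjusted p = 0.00303, 0.0128, 0.000848 and 0.00218, limma). No gene of these lists passed in either siRNA comparison or in the test of the difference between arms.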

How the data were processed

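RNA of HaCaT cells was sequenced after a NEBNext Ultra RNA library preparation, per the labels' protocols. Build hg38, featureCounts 1.5.0-p3, CASAVA and HISAT2 2.0.5 are listed, per the submitters' processing notes, without roles. The authors deposited 1 table of FPKM for 58735 genes and 12 libraries. FPKM steps gave whole reads (tolerance 0.05, genes of up to 200 reads) for 100% of values. Median-of-ratios factors computed on the deposited FPKM were 1.013 in every library, so the deposited FPKM already carry such a scaling. Here log2(FPKM + 1) was fitted with limma 3.58.1 in R 4.3.3 (1 mean per group, trended and robust variance, two-sided), with 14577 genes at a mean of 0.5 FPKM in at least 1 group and p-values adjusted over all of them by Benjamini-Hochberg, threshold 0.05. The fit was also run on simulated libraries, drawn independently with the same spread per gene in every group. That run does not cover the unequal spread of these groups or the replicate 2 pair that stands apart. Intervals for read ratios are exact and, like limits from low counts, cover counting error only. A floor of 3 reads was used. The alternatives were another pseudocount, no filter, other scalings, voom, the replicate number as a block, only the groups compared, and libraries left out. Same-numbered libraries of the 2 PHGDH-siRNA groups had correlated deviations from their group means (r 0.459 to 0.775 in 3 of 3 pairs). The 3 deviations of a group cancel out, so these r values are not independent. Replicate 2 stands apart in both groups and enters all of them, so they do not show that each number is a pair. The block within these groups took the numbers as pairs. This comes from the data, since the labels do not say what a number shares. In the other pairs of groups at most 1 of 3 pairs was over 0.1. The block within the PHGDH-siRNA groups and the scaling to library totals were added after the data were seen. The members and lists, and the rule for named genes (every member, up to 4 called genes per list by lowest adjusted p, a fixed panel, the 3 most alike genes per tested member, and neighbours of the SAA and WAP genes), were chosen with earlier results of these data known.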

Additional observations from a re-analysis of the deposited data

How the results depend on the processing

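Each comparison was refitted under 14 to 19 alternatives. Of the members' fold changes under them, 591 kept their side of the threshold, 10 lost the call, 5 gained it and 0 called values changed sign. The 591 overstate how stable the calls are. In the siRNA comparisons and the interaction no member was called in the main fit, so no call could be lost there. Median-of-ratios scaling had a factor of 1.013 in every library, so its outcome was nearly fixed in advance. The count of members called was 7 for Mix under the control siRNA and 6 under the PHGDH siRNA, and leaving out 1 library at a time gave 6 to 7 and 5 to 7, and 0 in the other 3 comparisons. With only the groups compared in the fit, 3 members were called for Mix under the PHGDH siRNA (DEFB4A at adjusted p = 0.0606, SLPI at 0.102 and SAA1 at 0.0559 were lost in limma). Without replicate 2 of both PHGDH-siRNA groups, 1 member (RNASE7) was called between the siRNAs without Mix. That pair was picked from the same data, and the cause was not tested. The replicate number as a block over all 12 libraries gave 7, 6, 0, 0 and 0 members. Same-numbered samples deviated together in the 2 PHGDH-siRNA groups, where replicate 2 stands apart in both and the 3 correlations are not independent. The labels do not say what a number shares in any comparison. The block within those 2 groups, added after the data were seen, gave 7 members and 4088 genes. The block over all libraries gave 1293 and 1188 genes for Mix, against 1391 and 1291. Other counts of genes moved more. For Mix under the control siRNA they were 2690 with only the groups compared, 3023 without replicate 2 of both PHGDH-siRNA groups and 658 to 1223 with 1 library left out. Under the PHGDH siRNA they were 254, 2190 and 665 to 1644, and 761 with no filter. Between the siRNAs without Mix, against 6 genes, the fits gave 101 without both libraries, 1 with no filter, 0 with the block or only the groups compared, and 0 to 4 or 6 with 1 library left out. With Mix, against 3 genes, they gave 55, 5, 0, and 1 with a pseudocount of 0.1 FPKM and 5 with scaling to the library total. The interaction gave 5 genes with no filter. Library-total scaling, added after the data were seen, moved the median of all genes to -0.05 and -0.06 for Mix. Members near 0 (DEFB1, CAMP, LTF) are limited by depth.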

Other observations

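DEFB103A and DEFB103B encode beta-defensin 3 from duplicated genes whose GENCODE 29 transcripts share 100% of their 50-base windows. DEFB103A had 98 reads (10.2 FPKM) in replicate 3 of PHGDH-siRNA+Mix and 0 or 1 read in each of the other 11 libraries. DEFB103B had 1 read in that library and 0 or 1 in each of the others. DEFB103B is named here after its values were seen. The difference between the groups in DEFB103A did not pass the test (PHGDH-siRNA+Mix against Control-siRNA+Mix, log2 difference 1.11, adjusted p = 0.979, limma). DEFB4B, the copy of DEFB4A, had 4 reads in replicate 3 of Control-siRNA+Mix, 9 and 2 reads in replicates 1 and 3 of PHGDH-siRNA+Mix, and 0 reads in the other 9 libraries. Reads of these pairs cannot be told apart over the shared windows.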
